A study of Mus musculus with 4 samples.

Results

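Megakaryocytes, the marrow cells that release platelets, red cell precursors and basophils share a small set of transcription factors with the stem cells they come from. The 10 described here, Gata1, Gata2, Zfpm1, Tal1, Gfi1b, Klf1, Fli1, Runx1, Nfe2 and Mecom, were taken by gene symbol from the 32544 genes of the deposited matrices, and all 10 were found. They were followed in single bone marrow cells of YAP1 heterozygote and WT mice, in the cell classes that use them and in single cells that hold RNA of several of them at once.

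GATA1 and GATA2 bind the same DNA motif, and in red cell and megakaryocyte development GATA1 takes over sites that GATA2 held in earlier cells. ZFPM1, also called FOG1, binds GATA1 and is needed for both lineages, while basophils and mast cells use GATA factors without it. KLF1 is an erythroid activator and FLI1 a megakaryocyte activator, and each is known to restrain the program of the other.

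The study compared YAP1 heterozygote with WT mice, which were 10 weeks old, with 2 libraries of flow-sorted nucleated bone marrow cells in each group. The libraries were made with the 10x Genomics 3′ kit, version 3.1, in which every transcript captured carries a molecular tag (UMI), and values below are UMIs, or UMIs per 1000000 UMIs (CPM), summed over the cells of a class in a library. What allele makes the mice heterozygous, their strain and the sort gates are not given in the sources used here. Nothing in the labels says whether the 2 libraries of a group came from separate animals, but sex-linked RNA, given below, differs between them in both groups. The p-values measure the spread between these libraries, which includes that difference.

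The YAP1 heterozygote libraries held 11346 and 14352 barcodes with 112806900 and 119855112 UMIs, and the WT libraries held 13236 and 12131 barcodes with 114943163 and 115773607 UMIs. After limits on depth and removal of doublets 10565 and 13231 cells were kept in the YAP1 heterozygote libraries and 12418 and 11367 in the WT libraries, with medians of 6747 and 5518 UMIs per cell in YAP1 heterozygote and 5855.5 and 6266 in WT. Any pair of libraries shared between 27 and 62 barcodes. Yap1 itself had 0 and 6 UMIs in the YAP1 heterozygote libraries and 6 and 7 UMIs in the WT libraries, too few to check the labels. Replicate 1 of both groups held Ddx3y, a Y-linked gene, at 67.8 CPM in YAP1 heterozygote and 100 CPM in WT, and replicate 2 of both groups held Xist, which is transcribed from the inactive X, at 864 CPM in YAP1 heterozygote and 885 CPM in WT, so the replicate numbers go with sex-linked RNA in both groups. Erythroid progenitor-like cells numbered 233 and 456 in the YAP1 heterozygote libraries and 142 and 443 in the WT libraries. Replicate 1 had fewer than replicate 2 in both groups, and WT replicate 1 had the fewest.

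Cells were clustered without the 10 factors, so that no factor placed a cell in its own class. Each of the 4 classes of interest was a single cluster, named from its markers. The megakaryocyte-like class, led by Pf4, Itga2b and Vwf, had 77 and 117 cells in the YAP1 heterozygote libraries and 130 and 129 in the WT libraries. The erythroid progenitor-like class, led by Car1, Car2 and Aqp1, had 1274 cells, the HSPC-like class of stem and early progenitor cells, led by Cd34, Adgrl4 and Cdk6, had 964, and the basophil or mast cell-like class, led by Mcpt8 and Prss34, had 948. The marker lists summed to between 8437 and 11990 CPM for megakaryocyte markers in megakaryocyte-like cells, 9355 and 10714 for erythroid markers in erythroid progenitor-like cells, 2520 and 2902 for stem cell markers in HSPC-like cells, and 39152 and 51600 for basophil markers in basophil or mast cell-like cells. HSPC-like cells also held 2345 to 3457 CPM of granulocyte-monocyte progenitor markers and 561 to 1554 CPM of eosinophil markers. The class is thus a mixture and not stem cells alone. Median depth differed widely, with 18154 UMIs per cell in megakaryocyte-like, 28274 in erythroid progenitor-like, 11005.5 in HSPC-like and 5942 in basophil or mast cell-like cells. A CPM value of a class cannot tell fewer expressing cells from less RNA per cell, and levels are compared between classes for 1 gene at a time, never between genes.

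The 10 factors fell on a scale from nearly exclusive to widespread. The 4 classes and the hemoglobin-filled erythroblast-like cells together held 8.18% of the kept cells and 15.8% of all their UMIs. They held 98.3% of the Klf1 UMIs, 97.6% of Gata1, 95.0% of Gata2, 94.9% of Gfi1b, 89.5% of Tal1, 84.0% of Mecom and 79.1% of Zfpm1. For the other 3 genes the share was far lower, at 25.7% for Runx1, 14.1% for Fli1 and 13.2% for Nfe2, the last 2 below the share of all UMIs. Runx1, Fli1 and Nfe2 are also used by lymphocytes or granulocytes, and most of their RNA lay outside these classes.

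**Figure D1:**
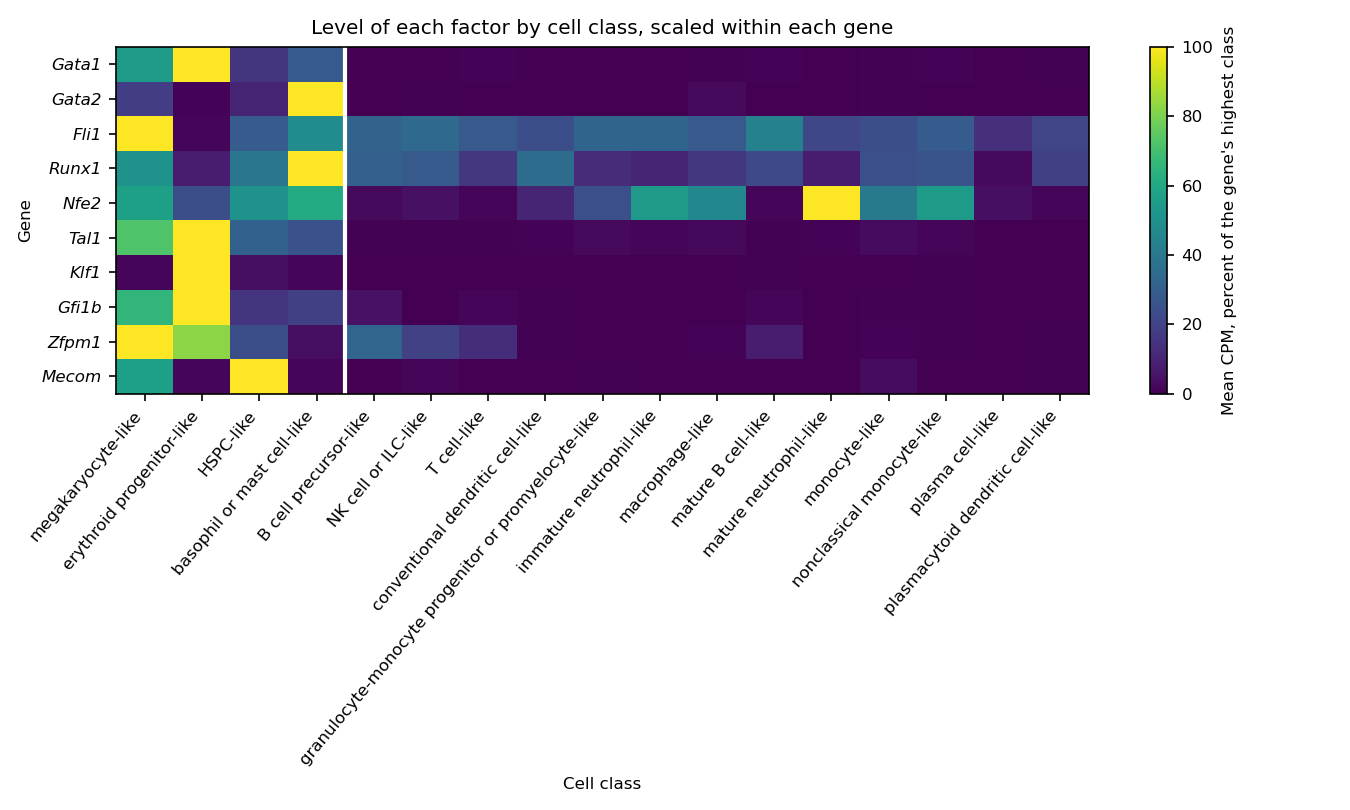
Mean CPM over the 4 libraries of each factor (rows) in each cell class (columns), as percent of the gene's highest class, with the 4 classes of interest at the left of the white line. Gata1, Tal1, Gfi1b and Klf1 were highest in erythroid progenitor-like cells, Fli1 and Zfpm1 in megakaryocyte-like, Gata2 and Runx1 in basophil or mast cell-like, Mecom in HSPC-like and Nfe2 in mature neutrophil-like cells.

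Gata1, on chromosome X at 7959260 to 7978071 (GRCm38, minus strand), encodes the GATA factor that drives red cell, platelet, mast cell and eosinophil development. In erythroid progenitor-like cells it had 125 and 120 CPM in the YAP1 heterozygote libraries and 122 and 113 CPM in the WT libraries. In megakaryocyte-like cells it had 58.4 and 70.6 CPM in YAP1 heterozygote and 60.5 and 72.2 CPM in WT, and in basophil or mast cell-like cells 36.2 and 44.7 CPM in YAP1 heterozygote and 25.7 and 29.3 CPM in WT. HSPC-like cells had 23.9 and 17.7 CPM in YAP1 heterozygote and 15.2 and 14.9 CPM in WT. The order was thus erythroid, megakaryocyte, basophil and stem cell, with no overlap of library values between neighbours in that order. The next class, T cell-like cells, averaged 1.35 CPM.

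Gata2, on chromosome 6 at 88193891 to 88207032 (plus strand), encodes the GATA factor of stem cells, mast cells and basophils, and its order was a different one. In basophil or mast cell-like cells it had 1347 and 1305 CPM in the YAP1 heterozygote libraries and 1578 and 1530 CPM in the WT libraries, and this class held 67.4% of its UMIs. Megakaryocyte-like cells had 240 and 230 CPM in YAP1 heterozygote and 337 and 233 CPM in WT, and HSPC-like cells 168 and 133 CPM in YAP1 heterozygote and 160 and 139 CPM in WT. In erythroid progenitor-like cells it had 7.87 and 9.24 CPM in YAP1 heterozygote and 17.7 and 13.7 CPM in WT. The class with the most Gata1 was therefore the one of the 4 with the least Gata2, and megakaryocyte-like cells held both genes. Macrophage-like cells, at 12.5 to 63.4 CPM over the 4 libraries, overlapped the erythroid range.

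Zfpm1, on chromosome 8 at 122282141 to 122337251 (plus strand), encodes the GATA1 cofactor FOG1. It had 280 and 268 CPM in the YAP1 heterozygote libraries and 276 and 290 CPM in the WT libraries in megakaryocyte-like cells, and 237 and 227 CPM in YAP1 heterozygote and 227 and 229 CPM in WT in erythroid progenitor-like cells. HSPC-like cells averaged 67.2 ± 7.4 CPM, and basophil or mast cell-like cells 10.7 ± 3.5 CPM (SD, n = 4 libraries each). Basophil or mast cell-like cells were thus rich in Gata2, held Gata1 and had little of the cofactor. Outside the 4 classes, B cell precursor-like cells had 85.4 to 98.9 CPM of Zfpm1, above every HSPC-like library.

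Tal1, on chromosome 4 at 115056426 to 115071755 (plus strand), encodes a basic helix-loop-helix factor that sits in a complex with GATA1, LMO2 and LDB1. It averaged 176 ± 14.0 CPM in erythroid progenitor-like, 127 ± 7.37 in megakaryocyte-like, 54.4 ± 3.76 in HSPC-like and 44.3 ± 3.44 CPM in basophil or mast cell-like cells (SD, n = 4 libraries each). Gfi1b, on chromosome 2 at 28609450 to 28621982 (minus strand), encodes a repressor needed for red cells and platelets. It averaged 97.0 ± 7.51 CPM in erythroid progenitor-like and 63.8 ± 10.5 CPM in megakaryocyte-like cells, then 18.2 ± 4.07 in basophil or mast cell-like and 14.6 ± 5.05 CPM in HSPC-like cells (SD, n = 4 libraries each), and the ranges of the last 2 overlapped. Both genes ran with Gata1, erythroid first and megakaryocyte second.

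Across the 17 classes with at least 20 cells in every library, the patterns most like each factor were ranked by Pearson's r of log2(CPM + 10), among 6293 genes with at least 50 CPM in 1 class. Classes share libraries and differ in depth, so r is given as a description of likeness. Gata1 was most like Icam4, an erythroid adhesion protein, at r = 0.994, then like Gfi1b at 0.985 and Tal1 at 0.979, so that 2 of its 3 nearest genes were among the 10 factors. The 3 nearest of Gfi1b were Gata1, Icam4 and Tal1, and those of Tal1 were Sdsl, Icam4 and Gata1. Klf1 was most like Tspo2 (0.992), Atp1b2 (0.991) and Ces2g (0.986), and Mecom like Myct1 (0.983), Hlf (0.937) and Muc13 (0.918). Gata2 was most like Slc18a2 (0.969), the vesicular monoamine transporter, Slc22a3 (0.941) and Ptger3 (0.936). Runx1 was most like Mapk6 (0.927), Rps6ka5 (0.893) and Ubn1 (0.865), and Zfpm1 like Isca1 (0.917), Ipo11 (0.908) and Car2 (0.892). Nfe2 was most like Ifitm2 (0.91), Mafg (0.904), a small Maf protein that pairs with NF-E2, and Rab5if (0.897). Fli1 had no gene above Atp2a3 (0.88), followed by Rasgrp2 (0.836) and Sptbn1 (0.808).

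The promoters of the 3 factors that ran together are printed with that of Klf1, which was more narrowly erythroid, so that their letters can be set beside those patterns. Each is the 250 bases before the first RefSeq start of the gene (GRCm38.p6), 5′ to 3′ on the gene's strand, at chrX:7967911-7968160 for Gata1 (minus strand), chr2:28621983-28622232 for Gfi1b (minus strand), chr4:115056176-115056425 for Tal1 (plus strand) and chr8:84901732-84901981 for Klf1 (plus strand). The Gata1 stretch lies inside the span given above for that gene, and the end of the Klf1 stretch inside the span given below. Capitals mark AGATAA, a form of the GATA motif, or its reverse complement TTATCT, and CACCC, the core of the motif KLF1 binds, or its reverse complement GGGTG.
Gata1: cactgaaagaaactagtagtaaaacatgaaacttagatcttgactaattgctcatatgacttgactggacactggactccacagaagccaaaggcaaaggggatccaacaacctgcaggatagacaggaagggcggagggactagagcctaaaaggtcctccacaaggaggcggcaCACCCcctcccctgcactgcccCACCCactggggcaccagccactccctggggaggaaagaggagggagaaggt
Gfi1b: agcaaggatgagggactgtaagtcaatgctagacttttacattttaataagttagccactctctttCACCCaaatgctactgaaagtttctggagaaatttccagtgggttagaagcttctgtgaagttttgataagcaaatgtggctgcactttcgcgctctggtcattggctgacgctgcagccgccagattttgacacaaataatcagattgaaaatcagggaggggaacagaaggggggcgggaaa
Tal1: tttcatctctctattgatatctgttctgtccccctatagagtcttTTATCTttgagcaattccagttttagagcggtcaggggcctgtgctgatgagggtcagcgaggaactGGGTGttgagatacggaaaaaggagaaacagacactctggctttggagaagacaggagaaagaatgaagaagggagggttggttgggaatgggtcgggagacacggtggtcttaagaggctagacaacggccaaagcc
Klf1: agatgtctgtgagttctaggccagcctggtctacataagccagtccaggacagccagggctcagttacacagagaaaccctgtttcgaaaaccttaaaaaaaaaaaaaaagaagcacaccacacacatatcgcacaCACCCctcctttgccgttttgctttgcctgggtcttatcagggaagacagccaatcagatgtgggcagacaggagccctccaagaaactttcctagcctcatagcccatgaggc
The Gata1 stretch held 2 CACCC, those of Gfi1b, Tal1 and Klf1 held 1 each, and Tal1 alone of the 4 held 1 AGATAA. Other forms of the GATA motif were not marked, such as TGATAA in Gfi1b and its reverse complement TTATCA in Klf1. The stretch before a second Tal1 start, at chr4:115057561-115057810, held neither AGATAA nor CACCC. Among 32536 promoters of the same length in the RefSeq table, 52.1% held CACCC and 10.0% held AGATAA on either strand. Of the 10 factors 8 had a promoter in the table, Fli1 and Nfe2 being the others. A match of letters is not a bound site, and no match in this window says nothing of binding elsewhere.

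Klf1, on chromosome 8 at 84901928 to 84905291 (plus strand), encodes the erythroid Krüppel-like factor and was the most restricted of the 10. Erythroid progenitor-like cells had 304 and 325 CPM in the YAP1 heterozygote libraries and 275 and 313 CPM in the WT libraries, and this class alone held 96.2% of its UMIs. In HSPC-like cells it had 18.8 and 12.6 CPM in YAP1 heterozygote and 5.31 and 12.8 CPM in WT. Megakaryocyte-like cells averaged 4.52 ± 1.98 CPM and basophil or mast cell-like cells 4.42 ± 2.98 CPM (SD, n = 4 libraries each), so that erythroid progenitor-like cells stood apart from every other class and the ranges of the 3 that followed overlapped from one to the next.

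Fli1, on chromosome 9 at 32422204 to 32542861 (minus strand), encodes the ETS factor that activates platelet genes, and it was nearly a mirror image of Klf1 within the 4 classes. It had 342 and 361 CPM in YAP1 heterozygote and 349 and 360 CPM in WT in megakaryocyte-like cells, the highest of all classes. Erythroid progenitor-like cells had 3.93 and 3.65 CPM in YAP1 heterozygote and 7.02 and 3.47 CPM in WT. Basophil or mast cell-like cells averaged 170 ± 4.18 CPM (SD, n = 4 libraries), and HSPC-like cells had 105 and 91.8 CPM in YAP1 heterozygote and 112 and 96.5 CPM in WT. Erythroid progenitor-like cells were low by the measure of lymphoid and myeloid cells too, since mature B cell-like cells had 139 to 175 CPM and immature neutrophil-like cells 104 to 121 CPM.

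Runx1, on chromosome 16 at 92601466 to 92826149 (minus strand), encodes the core-binding factor that blood stem cells need to arise and megakaryocytes to mature. It had 626 and 568 CPM in YAP1 heterozygote and 634 and 579 CPM in WT in basophil or mast cell-like cells, above every other class. Megakaryocyte-like cells had 304 and 281 CPM in YAP1 heterozygote and 362 and 278 CPM in WT, HSPC-like cells averaged 237 ± 31.9 CPM, and erythroid progenitor-like cells 45.6 ± 9.2 CPM (SD, n = 4 libraries each). Megakaryocyte-like and HSPC-like ranges overlapped.

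Nfe2, on chromosome 15 at 103248212 to 103258403 (minus strand), encodes the large subunit of NF-E2, which late megakaryocytes need to shed platelets and which binds globin control regions. It had the smallest share of UMIs in the erythroid, megakaryocyte, basophil and stem cell classes of the 10, and its highest class was mature neutrophil-like cells, at 205 to 219 CPM. Basophil or mast cell-like cells averaged 129 ± 20.2 CPM, megakaryocyte-like cells 121 ± 7.97, HSPC-like cells 108 ± 16.4 and erythroid progenitor-like cells 51.1 ± 6.3 CPM (SD, n = 4 libraries each), and the first 3 overlapped. Neutrophil markers were present in all 4 classes. In megakaryocyte-like cells the mature neutrophil list had 3945 and 6431 CPM in YAP1 heterozygote and 10419 and 3021 CPM in WT. Over the libraries it had 10436 to 17994 CPM in basophil or mast cell-like and 11061 to 13921 CPM in HSPC-like cells. Erythroid progenitor-like cells had 4804 to 6066 CPM of it. The part of neutrophil RNA in the Nfe2 levels was not tested.

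Mecom, on chromosome 3 at 29951296 to 30548008 (minus strand), encodes EVI1 and related zinc finger proteins of long-term stem cells. With 682 UMIs it was the rarest of the 10. HSPC-like cells had 36.1 and 35.9 CPM in YAP1 heterozygote and 27.1 and 32.5 CPM in WT, and megakaryocyte-like cells 25 and 15.5 CPM in YAP1 heterozygote and 13.7 and 20.3 CPM in WT. Erythroid progenitor-like cells averaged 0.389 CPM and basophil or mast cell-like cells 0.428 CPM, with 2 of the 4 basophil libraries at 0. Among the 4 classes Mecom was thus a factor of stem and megakaryocyte cells.

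**Figure D2:**
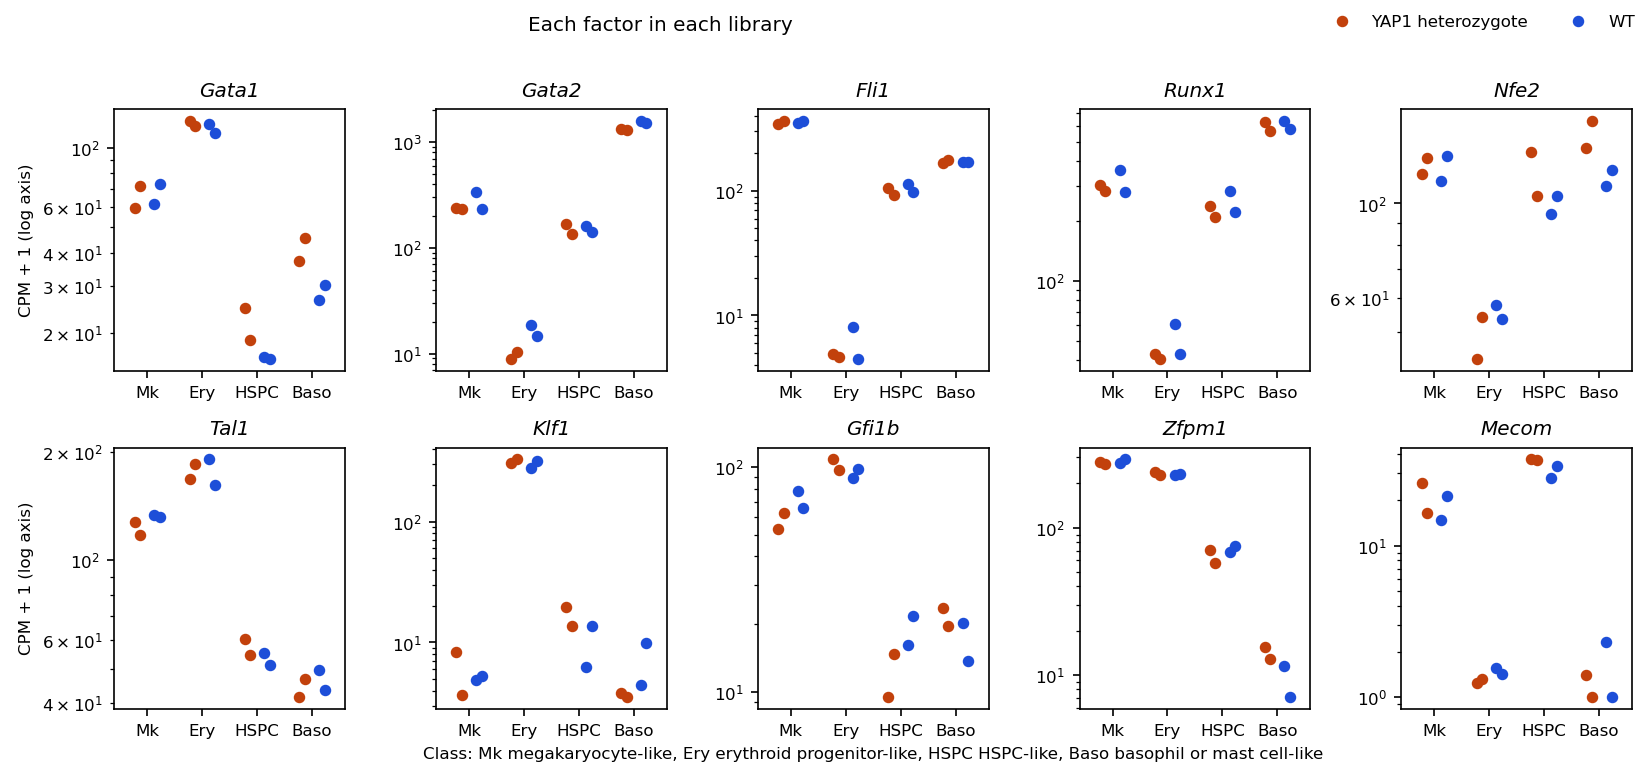
CPM + 1 on a log axis of each factor in each of the 4 libraries, by class, with YAP1 heterozygote libraries left of WT libraries in each class; the panels have different ranges. Differences between classes exceed those between libraries for most genes, with Gata2 spanning the widest range, from 12.1 CPM in erythroid progenitor-like to 1440 CPM in basophil or mast cell-like cells on average, and Nfe2 the narrowest of the 10.

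Pairs of classes were tested with edgeR's quasi-likelihood test on the sums per library and class with the library as a term, and called at an adjusted p under 0.05 over all genes (Benjamini-Hochberg). The classes were formed from other genes of the same cells, so most genes differ between them and the calls are read against that share. Of megakaryocyte-like against erythroid progenitor-like cells, 9 of 10 factors were called where 74% of all genes were, 5 of them higher (37.3% of all genes) and 4 lower (36.6%). Fli1 was higher in megakaryocyte-like cells by a log2 fold change of 6.17 (SE 0.127), Mecom by 5.34 (SE 0.314), Gata2 by 4.17 (SE 0.12), Runx1 by 2.49 (SE 0.07) and Nfe2 by 0.98 (SE 0.084). Klf1 was lower there, at -6.40 (SE 0.142), Gata1 at -1.13 (SE 0.084), Gfi1b at -0.87 (SE 0.103) and Tal1 at -0.73 (SE 0.076). Zfpm1 was not called, at 0.0071 (SE 0.057, edgeR adjusted p = 0.915). The fit rescales classes by the bulk of their genes, which moved the median of all genes by -0.27 on the log2 scale against plain CPM in this pair, so the CPM of Zfpm1, whose ranges did not overlap, and its fitted change differ by about that shift.

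Set against the HSPC-like class, some factors moved alike in both lineages and others split. Megakaryocyte-like cells had 7 factors called higher and 2 lower than HSPC-like cells, of 10 tested, where 50.2% of all genes were called, 23.9% higher and 26.3% lower. The largest increases there were 2.15 (SE 0.144) for Gfi1b, 2.07 (SE 0.074) for Zfpm1, 1.90 (SE 0.138) for Gata1 and 1.81 (SE 0.074) for Fli1 (log2), and the decreases were -1.41 (SE 0.277) for Klf1 and -0.82 (SE 0.147) for Mecom. Erythroid progenitor-like cells had 5 higher and 5 lower, with 81.6% of all genes called, 39.8% higher and 41.8% lower. Klf1 at 5.05 (SE 0.166), Gata1 at 3.13 (SE 0.101) and Gfi1b at 3.09 (SE 0.154) led the increases, and Mecom at -6.07 (SE 0.225), Fli1 at -4.22 (SE 0.121) and Gata2 at -3.31 (SE 0.15) the decreases. Gata1, Gfi1b, Zfpm1 and Tal1 were therefore called higher than in HSPC-like cells in both lineages, and Mecom lower in both. Fli1, Gata2 and Runx1 were higher in megakaryocyte-like and lower in erythroid progenitor-like cells, and Klf1 the reverse. Nfe2 was called, and lower, in erythroid progenitor-like cells only. In these 2 pairs of classes the fit moved the median of all genes by 0.01 and 0.37 against plain CPM.

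Basophil or mast cell-like cells had 6 factors called higher and 3 lower than HSPC-like cells, with 64% of all genes called, 30.3% higher and 33.7% lower. Gata2 led at 3.62 (SE 0.084), then Runx1 at 1.71 (SE 0.072), Gata1 at 1.24 (SE 0.147) and Fli1 at 1.10 (SE 0.08), and Mecom at -5.51 (SE 0.384) and Zfpm1 at -2.28 (SE 0.167) were lower. Klf1, at -1.10 (SE 0.351), and Gfi1b, at 0.72 (SE 0.244), rested on few UMIs and were not called by DESeq2 (adjusted p = 0.074 and 0.0847). Leaving out YAP1 heterozygote replicate 1 also ended both calls, at -0.58 and 0.38 (edgeR adjusted p = 0.183 and 0.19). The Tal1 difference was 0.060 (edgeR adjusted p = 0.643), although its CPM ranges did not overlap, and the fit moved the median of all genes by 0.34 here. Between megakaryocyte-like and basophil or mast cell-like cells 9 of 10 factors were called, 6 higher and 3 lower in megakaryocyte-like cells, against 66.6% of all genes, 34.8% higher and 31.8% lower. Zfpm1 differed by 4.36 (SE 0.147), Mecom by 4.76 (SE 0.494) and Gata2 by -2.80 (SE 0.092), and Klf1 was not called at -0.29 (edgeR adjusted p = 0.582). Between erythroid progenitor-like and basophil or mast cell-like cells all 9 tested factors were called, 5 higher and 4 lower, against 80.9% of all genes, 41.4% higher and 39.4% lower, with Klf1 at 6.10 (SE 0.183) and Gata2 at -6.94 (SE 0.133).

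Within the erythroid cells the factors changed with the amount of hemoglobin RNA. The erythroid progenitor-like and hemoglobin-filled erythroblast-like cells were split by the share of a cell's UMIs from hemoglobin genes into 596 cells below 1%, 478 cells from 1 to 10%, 280 cells from 10 to 50% and 172 cells above 50%. Median depth was lower in each next bin, at 42149.5, 26807.5, 12312 and 4646.5 UMIs. Gata2 averaged 19.8, 1.23, 0.689 and 0 CPM over these 4 bins, and 418 of its UMIs came from the first bin. Its residue in the erythroid class was thus in the cells with the least hemoglobin RNA.

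Klf1 averaged 259, 347, 385 and 20.4 CPM over the same bins, Tal1 130, 202, 337 and 47.9, and Zfpm1 185, 270, 324 and 20.1 CPM. Gfi1b took the other course, at 104, 89.4, 69.4 and 0.531 CPM. Gata1 had 110, 131, 128 and 9.6 CPM, and was higher in the second bin than in the first in every library. Because hemoglobin RNA takes up most of the last bin, the same genes were set against non-hemoglobin UMIs alone. On that scale, pooled over libraries, Klf1 had 265, 374, 493 and 108 CPM, Gata1 110, 133, 159 and 51.1, and Gfi1b 107, 89.6, 86.4 and 5.68 CPM. Nfe2 climbed through all 4 bins on this scale, at 33.5, 64.3, 170 and 472 CPM, the last from 83 UMIs. In the 3 bins below 50% the means of Klf1, Tal1, Zfpm1 and Nfe2 were higher in each next bin on both scales. In single libraries on plain CPM this held for Tal1 and Nfe2 in all 4, while Klf1 was lower in the third bin than in the second in YAP1 heterozygote replicate 1 and WT replicate 2, and Zfpm1 in YAP1 heterozygote replicate 1. Gfi1b was lower in each next bin in every library except WT replicate 1, where it had 84.8 CPM in the first and 98.0 CPM in the second bin. The last bin held only 9 Gata1 UMIs and 1 Gfi1b UMI.

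Megakaryocyte-like cells were split by the share of UMIs from 5 platelet genes into 3 bins, with 179 cells below 0.5%, 241 cells from 0.5 to 2% and 33 cells above 2%. Mecom averaged 35.7, 11.2 and 5.28 CPM over the 3 bins, and Klf1 7.95, 3.14 and 0 CPM. Gata2 averaged 331, 240 and 118 CPM. Fli1, at 332, 361 and 340 CPM, Gata1, at 64.2, 62.1 and 63.8 CPM, and Gfi1b, at 59.6, 61.4 and 76.5 CPM, showed no such slope. In the first bin Mecom had 50.4 and 32.1 CPM in YAP1 heterozygote and 24.3 and 35.9 CPM in WT, and in the second bin 10.6 and 10.7 CPM in YAP1 heterozygote and 7.66 and 16.0 CPM in WT. Cells of the first bin were higher than those of the second in every library for this gene. The last bin held between 4 and 15 cells per library and carries little weight.

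**Figure D3:**
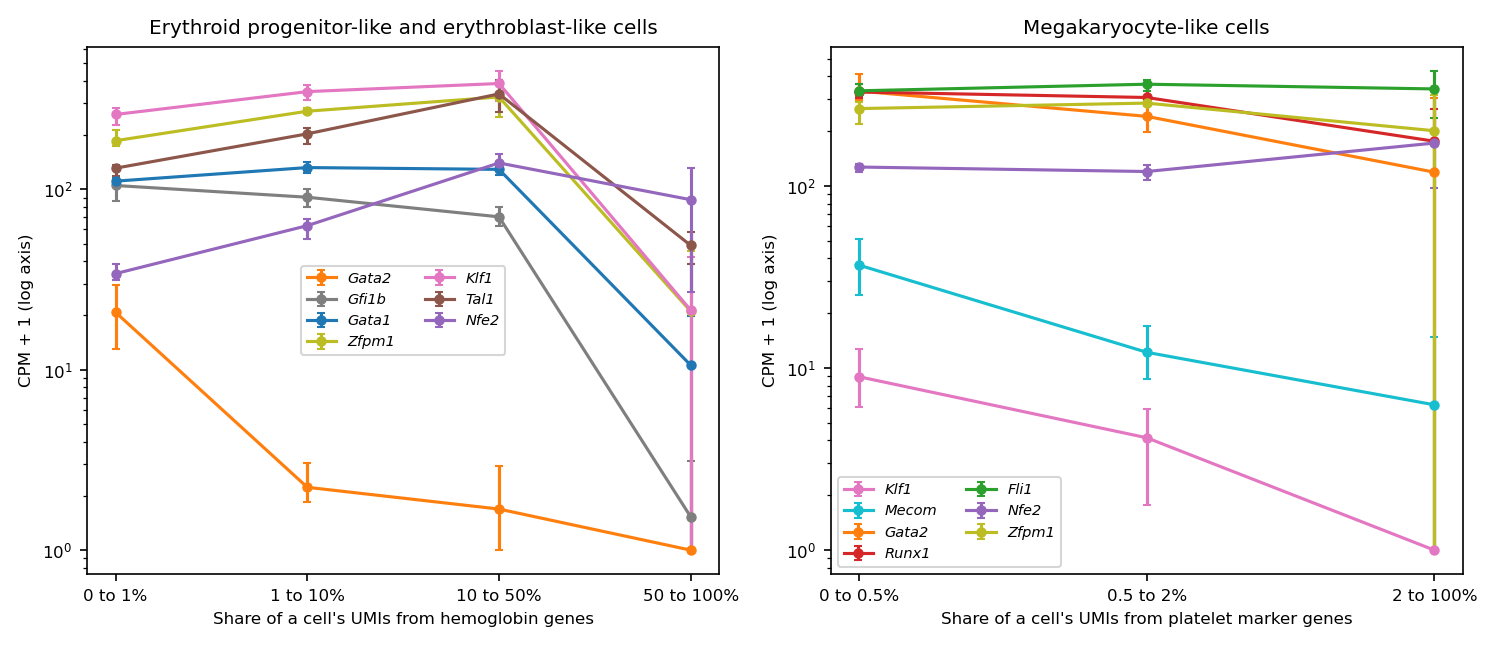
CPM + 1 on a log axis of the factors in erythroid cells by the share of a cell's UMIs from hemoglobin genes, and in megakaryocyte-like cells by the share from platelet marker genes, as means over the 4 libraries with bars from the lowest to the highest library. Gata2 had 19.8 CPM below 1% hemoglobin and 1.23 CPM in the next bin, and Mecom 35.7 and 11.2 CPM in the first 2 bins of megakaryocyte-like cells.

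Detection in single cells was compared after every cell was thinned to 2000 UMIs, with shallower cells left out, and mature B cell-like cells served as the class in which most of these genes are not used. At that depth Gata2 had a UMI in 91.0% of basophil or mast cell-like cells, in 36.1% of megakaryocyte-like, 21.4% of HSPC-like and 1.96% of erythroid progenitor-like cells, against 0.218% of mature B cell-like cells. Gata1 had a UMI in 22.9% of erythroid progenitor-like, 13.5% of megakaryocyte-like, 5.81% of basophil or mast cell-like and 2.68% of HSPC-like cells, against 0.159% of mature B cell-like cells. Klf1 was found in 47.2% of erythroid progenitor-like cells, 2.28% of megakaryocyte-like and 2.25% of HSPC-like cells, against 0.277% of mature B cell-like cells, and in 0.538% of basophil or mast cell-like cells, which is near that background. Without thinning, at median depths of 28274 and 2756 UMIs, Klf1 was found in 90.5% of erythroid progenitor-like and 0.4% of mature B cell-like cells.

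Zfpm1 was detected in 45.2% of megakaryocyte-like, 37.8% of erythroid progenitor-like, 13.6% of HSPC-like and 1.18% of basophil or mast cell-like cells. The basophil share was below the 3.25% of mature B cell-like cells, but that class is no clear background for Zfpm1. Mature B cell-like cells averaged 21.3 CPM of it, against 3.01 CPM in monocyte-like and 0.69 CPM in mature neutrophil-like cells. Basophil or mast cell-like cells, at 10.7 CPM, lay between. Tal1 was detected in 31.1% of erythroid progenitor-like and 22.4% of megakaryocyte-like cells, and Gfi1b in 15.8% and 9.36%, against 0.119 and 0.277% of mature B cell-like cells for the 2 genes. Mecom was detected in 7.07% of HSPC-like and 2.51% of megakaryocyte-like cells, and in 0 of 5047 mature B cell-like cells, which allows a share of up to 0.0594%. Fli1 and Runx1 are used by B cells, at 26.1 and 22.8% of mature B cell-like cells, so that class is no background for them. Erythroid progenitor-like cells were far below it for Fli1, at 0.597%. These shares cover counting error only, and at full depth more cells had a UMI, for example 63.4% of megakaryocyte-like cells for Gata1 and 24.0% of HSPC-like cells for Mecom.

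The number of the 10 factors with a UMI in a cell thinned to 2000 UMIs had a median of 2 in megakaryocyte-like, erythroid progenitor-like and basophil or mast cell-like cells and 1 in HSPC-like cells. Means over the 4 libraries were 2.4 ± 0.203, 1.78 ± 0.057, 2.3 ± 0.0697 and 1.35 ± 0.121 in the same order of classes (SD, n = 4 libraries), against 0.548 ± 0.0461 in mature B cell-like cells. No factor was seen in 26.4% of HSPC-like cells, and 6 were the most seen in 1 cell of that class. The median depended on the depth chosen, so it describes cells at 2000 UMIs and not how many factors a cell makes.

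To ask whether 2 factors were found in the same cells, the number of cells with a UMI of both was divided by the number that the product of the 2 shares gives within each library. No test was made of these ratios. In megakaryocyte-like cells the 29 pairs whose product gave at least 5 cells had a median ratio of 1.01, in erythroid progenitor-like cells 25 pairs had 1.05, and in basophil or mast cell-like cells 20 pairs had 1.00. Within those classes most pairs were thus found together about as often as their shares give. Gata1 with Gata2 was found in 24 megakaryocyte-like cells, against 20.9 from the shares (1.15), and in 49 basophil or mast cell-like cells, against 49.1 (0.999). At full depth 58.5% of megakaryocyte-like and 20.9% of basophil or mast cell-like cells held RNA of both GATA genes, against 13.7% of erythroid progenitor-like cells. Median depths were 18154, 5942 and 28274 UMIs in the same order, so these shares do not compare the classes at equal depth. At the equal depth after thinning, the 24 megakaryocyte-like cells were of 438 and the 49 basophil or mast cell-like cells of 930, which are similar shares.

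Fli1 and Klf1, the activators of the 2 lineages, were seen together in 5 megakaryocyte-like cells against 4.87 from the shares, in 3 erythroid progenitor-like cells against 3.37, and in 3 HSPC-like cells against 3.71. Counts this small do not show whether the pair is found together more or less often than its shares. Of the pairs with enough cells, Gata1 with Tal1 was above 1 in all 4 megakaryocyte libraries, with 19 cells against 13.1 from the shares (1.45), and Nfe2 with Gfi1b was below 1 in all 4, with 4 cells against 7.75 (0.516). At full depth the same ratios were 1.08 and 1.05.

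In HSPC-like cells the median ratio was 1.1 over 28 pairs, and 7 pairs were above 1 in all 4 libraries, against 2, 2 and 1 pairs in the megakaryocyte-like, erythroid progenitor-like and basophil or mast cell-like classes. Gata2 took part in 4 of these 7. It was found with Zfpm1 in 54 cells against 27.2 from the shares, a ratio of 1.98, with 1.65 and 1.87 in the YAP1 heterozygote libraries and 1.91 and 2.54 in the WT libraries. With Tal1 it was found in 45 cells against 22.9 (1.97), with 1.25 and 2.37 in YAP1 heterozygote and 2.05 and 2.71 in WT, and with Gata1 in 12 cells against 5.35 (2.24). For each of these pairs every library of both genotypes lay above 1.

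Because few pairs have enough cells at 2000 UMIs, the HSPC-like class was also thinned to 5000 UMIs, which kept 885 cells; this depth and the HSPC-like pairs were chosen after the data were seen. Gata2 was then found with Klf1 at a ratio of 2.16, with Gata1 at 2.09, with Gfi1b at 2.03, with Zfpm1 at 1.91, with Tal1 at 1.54, with Mecom at 1.41 and with Nfe2 at 1.35, each above 1 in all 4 libraries. With Fli1 it was 1.07 and with Runx1 1.01, and neither was above 1 in every library. The ratio of Gata2 with Mecom depended on the depth: at 2000 UMIs it was 0.904, with 13 cells against 14.4 from the shares. Gata1 with Zfpm1 had a ratio of 2.51, with 2.60 and 2.24 in YAP1 heterozygote and 2.75 and 2.38 in WT.

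**Figure D4:**
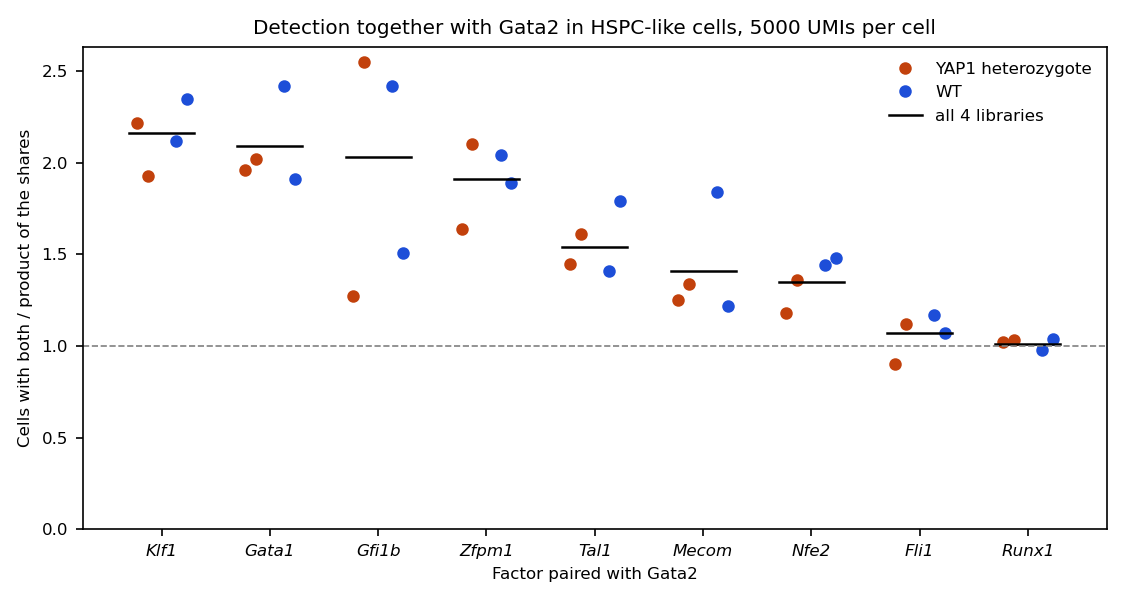
Cells of the HSPC-like class, thinned to 5000 UMIs, with a UMI of Gata2 and of the factor named, divided by the number from the product of their shares; points are libraries, YAP1 heterozygote left of WT. Klf1, Gata1, Gfi1b and Zfpm1 lie near 2 in the pooled cells, and Fli1 and Runx1 near 1.

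HSPC-like cells with a Gata2 UMI at 2000 UMIs, 200 in number, carried more erythroid and megakaryocyte marker RNA than the 734 without. The erythroid list summed to 944 and 1017 CPM in YAP1 heterozygote and 631 and 1253 CPM in WT among cells with a Gata2 UMI, and to 492 and 487 CPM in YAP1 heterozygote and 487 and 541 CPM in WT among those without. The megakaryocyte list had 290 and 211 CPM in YAP1 heterozygote and 320 and 187 CPM in WT with a Gata2 UMI, and 107 and 114 CPM in YAP1 heterozygote and 115 and 82.5 CPM in WT without. Granulocyte and monocyte progenitor markers were lower in the cells with a Gata2 UMI in all 4 libraries, at 728 to 2438 CPM against 2746 to 3868 CPM. The stem cell list was higher with a Gata2 UMI in each library, at 2654 to 3246 CPM against 2489 to 2828 CPM. The basophil list had 243 and 187 CPM in YAP1 heterozygote and 409 and 126 CPM in WT with a Gata2 UMI. Without one it had 168 and 133 CPM in YAP1 heterozygote and 178 and 185 CPM in WT, so WT replicate 2 went the other way. The class is therefore not uniform in its use of Gata2.

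The 66 HSPC-like cells with a Mecom UMI had more of the stem cell list, at 4339 and 3804 CPM in YAP1 heterozygote and 3251 and 3722 CPM in WT, than the 868 without, at 2796 and 2636 CPM in YAP1 heterozygote and 2635 and 2457 CPM in WT. Their megakaryocyte list was higher too, at 209 to 484 CPM against 97.1 to 138 CPM. The 25 cells with a Gata1 UMI stood out by the erythroid list, at 1682 to 2315 CPM against 484 to 645 CPM in the 909 without. Cells with and without a Mecom or Gata1 UMI did not overlap for the lists just given, and these groups are a description of cells sorted by 1 UMI.

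The genes around the factors were followed through 4 lists: 32 partners and cofactors, 24 erythroid targets of GATA1 and KLF1, 24 megakaryocyte targets of GATA1, FLI1, RUNX1 and NFE2, and 15 basophil and mast cell regulators and GATA2 targets. Some of these genes name or form the classes, so differences between classes are given with no test. Of 23 tested megakaryocyte targets all 23 were higher in megakaryocyte-like than in erythroid progenitor-like cells, with a median log2 fold change of 8.09, against 0.01 over all genes. Treml1, a platelet granule receptor, had 144 and 198 CPM in YAP1 heterozygote and 150 and 248 CPM in WT in megakaryocyte-like cells, and 0 to 0.562 CPM in erythroid progenitor-like cells. Of 23 tested erythroid targets 22 were lower in megakaryocyte-like cells, with a median of -4.37. Ermap, an erythroid membrane protein, had 1 UMI over the 4 libraries in megakaryocyte-like cells and 450 to 511 CPM in erythroid progenitor-like cells.

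Among 30 tested partners 19 were higher and 11 lower in megakaryocyte-like than in erythroid progenitor-like cells, with a median of 0.19. Meis1, a homeobox factor, averaged 281 CPM in megakaryocyte-like and 1.08 CPM in erythroid progenitor-like cells. Erg, an ETS factor related to FLI1, averaged 28.8 and 0.762 CPM, Etv6, an ETS repressor, 179 and 13.2 CPM, and Cbfb, the partner subunit of RUNX1, 76.3 and 7.63 CPM in the same 2 classes. Cbfb was thus low in the class where Runx1 was low. Lmo2, the bridge between TAL1 and GATA1, averaged 401 CPM in megakaryocyte-like, 287 in erythroid progenitor-like, 332 in HSPC-like and 69.2 CPM in basophil or mast cell-like cells, low in the class that was also low in Zfpm1. Spi1, which encodes PU.1, a myeloid factor that opposes GATA1, ran the other way, at 196 CPM in basophil or mast cell-like and 144 CPM in HSPC-like cells, against 28.4 and 10.9 CPM in megakaryocyte-like and erythroid progenitor-like cells. Of 15 basophil and mast cell genes 11 were higher and 4 lower in basophil or mast cell-like than in HSPC-like cells, with a median of 2.79 against -0.07 over all genes. In megakaryocyte-like against erythroid progenitor-like cells 12 of 14 tested genes of that list were higher, with a median of 1.98, and basophil marker RNA there differed between the libraries as given below.

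The study's own comparison, YAP1 heterozygote against WT, was made class by class with the same test on 2 libraries a group. No factor was called in any of the 17 classes or in all cells together, by edgeR, by DESeq2 or with the replicate number as a block. In megakaryocyte-like cells 0 of 9 tested factors were called, where 0.0102% of all genes were, and 238 of 9783 genes had an unadjusted p under 0.05. In erythroid progenitor-like cells it was 0 of 9, with 0% of all genes called and 312 at that p. In HSPC-like cells it was 0 of 10, with 0.114% and 558 genes, and among basophil or mast cell-like cells 0 of 8, with 0.0871% and 546 genes. DESeq2 called 1, 0, 9 and 33 genes in these 4 classes. Of the 13 other classes, the share of all genes called was 0.448% in T cell-like, 0.402% in macrophage-like, 0.242% in plasma cell-like, 0.102% in nonclassical monocyte-like, 0.0368% in B cell precursor-like, 0.0197% in mature B cell-like and 0.00919% in granulocyte-monocyte progenitor or promyelocyte-like cells, and 0% in the other 6 and in all cells together.

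The log2 fold change of Fli1, YAP1 heterozygote over WT, in megakaryocyte-like cells was -0.0004 with a 95% interval of -0.28 to 0.28, that of Gata1 -0.02 (-0.42 to 0.37), that of Zfpm1 -0.04 (-0.31 to 0.24) and that of Nfe2 0.04 (-0.28 to 0.35). Runx1 was at -0.11 (-0.44 to 0.21), Tal1 at -0.11 (-0.40 to 0.18), Gfi1b at -0.30 (-0.68 to 0.08) and Mecom at 0.22 (-0.46 to 0.89). Gata2 was at -0.26 (-0.63 to 0.10), so that the intervals of all 9 lay between -1 and 1. It had 240 and 230 CPM in YAP1 heterozygote and 337 and 233 CPM in WT. Only WT replicate 1 was high, and it also held the most basophil marker RNA in this class, at 42.0 and 28.9 CPM in YAP1 heterozygote and 281 and 158 CPM in WT. Their part in the Gata2 level was not tested; without WT replicate 1 the value was 0.0095, and without WT replicate 2 it was -0.49 and was called (edgeR adjusted p = 0.0347).

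In erythroid progenitor-like cells Gata2 had the lowest unadjusted p of the 9, with 7.87 and 9.24 CPM in YAP1 heterozygote and 17.7 and 13.7 CPM in WT, and the libraries of the groups did not overlap. Its log2 fold change was -0.82 with a 95% interval of -1.26 to -0.38 (edgeR unadjusted p = 0.00218, adjusted p = 1). Most of it lay in the cells below 1% hemoglobin, at 12 and 15 CPM in YAP1 heterozygote and 28.6 and 23.7 CPM in WT. In the next bin, from 1 to 10%, it had 1.05 and 0.976 CPM in YAP1 heterozygote and 2.04 and 0.859 CPM in WT, and the groups overlapped. How far cells of the first bin differ in maturity between the genotypes was not tested. Stem cell markers in this class summed to 332 and 294 CPM in YAP1 heterozygote and 383 and 317 CPM in WT, and basophil markers to 24.2 and 19.9 CPM in YAP1 heterozygote and 30.6 and 25 CPM in WT. Their part in the Gata2 value was not tested. With no filter on low counts Gata2 was called in this class (edgeR adjusted p = 0.0082), as it was without WT replicate 2.

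None of the other factors of the erythroid class was called with all 4 libraries. Gata1 was at 0.07 (95% interval -0.13 to 0.27), Klf1 at 0.095 (-0.17 to 0.36), Tal1 at 0.01 (-0.24 to 0.27), Zfpm1 at 0.02 (-0.19 to 0.23) and Gfi1b at 0.11 (-0.11 to 0.34). Runx1 was at -0.28 (-0.62 to 0.06), with 41.7 and 39.4 CPM in YAP1 heterozygote and 59.3 and 41.9 CPM in WT. It was called without WT replicate 2, at -0.52 (edgeR adjusted p = 0.0256), and was at -0.063 without WT replicate 1. Nfe2 was at -0.18 (-0.50 to 0.14) and Fli1 at -0.31 (-1.13 to 0.50).

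Among HSPC-like cells Gfi1b had 8.47 and 13.8 CPM in YAP1 heterozygote and 15.2 and 20.8 CPM in WT, a log2 fold change of -0.69 (95% interval -1.34 to -0.04, edgeR unadjusted p = 0.0395, adjusted p = 0.916). Klf1 had 18.8 and 12.6 CPM in YAP1 heterozygote and 5.31 and 12.8 CPM in WT, at 0.84 (0.02 to 1.67, edgeR unadjusted p = 0.0448, adjusted p = 0.94). For Klf1 only WT replicate 1 was low, and hemoglobin genes in this class summed to 437 and 1554 CPM in YAP1 heterozygote and 82 and 334 CPM in WT. Their part in the Klf1 value was not tested. Gata1 was at 0.46 (-0.03 to 0.96), Mecom at 0.27 (-0.12 to 0.66) and Gata2 at -0.0032 (-0.30 to 0.29), the last with 168 and 133 CPM in YAP1 heterozygote and 160 and 139 CPM in WT. Fli1, Runx1, Nfe2, Tal1 and Zfpm1 lay between -0.20 and 0.25, with intervals that included 0.

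In basophil or mast cell-like cells Gata2 was at -0.32 (95% interval -0.61 to -0.02, edgeR unadjusted p = 0.0411, adjusted p = 0.799), and the YAP1 heterozygote libraries, at 1347 and 1305 CPM, lay below the WT libraries, at 1578 and 1530 CPM. Gata1 was at 0.45 (-0.01 to 0.91), with 36.2 and 44.7 CPM in YAP1 heterozygote and 25.7 and 29.3 CPM in WT. The other factors of this class had intervals that included 0. The difference of the Gata2 genotype effect between megakaryocyte-like and erythroid progenitor-like cells was 0.62 (edgeR unadjusted p = 0.00554, adjusted p = 1), and no factor was called in any of the 6 such comparisons. The share of all genes called in them was 0.00935% for megakaryocyte-like against erythroid progenitor-like cells, 0.0822% and 0.038% for megakaryocyte-like against HSPC-like and basophil or mast cell-like cells, 0.0176% and 0.0189% for erythroid progenitor-like against the same 2 classes, and 0% for basophil or mast cell-like against HSPC-like cells. The farthest from 0 was Klf1 in that last pair, at -2.08 (edgeR unadjusted p = 0.00288, adjusted p = 0.636).

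**Figure D5:**
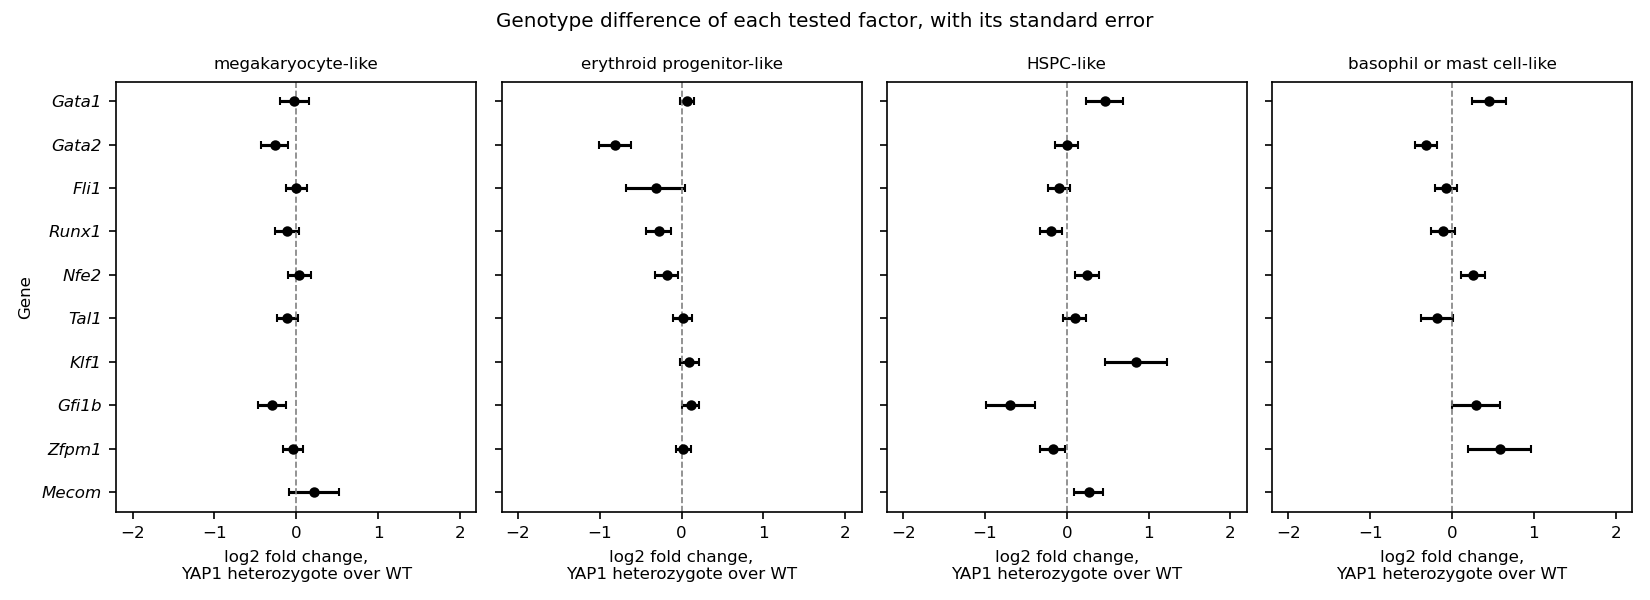
Log2 fold change, YAP1 heterozygote over WT, of each tested factor in the 4 classes (edgeR, bars are 1 SE on either side, 2 libraries a group). No factor was called, and the values farthest from 0 are those of Klf1 (0.84) and Gfi1b (-0.69) in HSPC-like cells and Gata2 (-0.82) in erythroid progenitor-like cells.

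Of the 4 lists around the factors, 2 genes were called between the genotypes in the 4 classes, both in HSPC-like cells. Maff, a small Maf protein that can pair with NF-E2, had 8.47 and 13.4 CPM in YAP1 heterozygote and 39.5 and 27.7 CPM in WT, and fell by 1.64 on the log2 scale (SE 0.265, edgeR adjusted p = 0.0422). Thbs1, the gene of the platelet granule protein thrombospondin 1, had 18.0 and 24.8 CPM in YAP1 heterozygote and 63.0 and 57.4 CPM in WT, and fell by 1.51 (SE 0.184, edgeR adjusted p = 0.0114). They were 1 of 31 tested partners and 1 of 13 tested megakaryocyte targets, where 0.114% of all genes were called. Both calls were lost without YAP1 heterozygote replicate 1, at -1.32 for Maff and -1.26 for Thbs1 (edgeR adjusted p = 0.271 and 0.0744). With Leiden resolution 2.0 Maff was at -1.69 and Thbs1 at -1.13 (edgeR adjusted p = 0.0515 and 0.107), and with doublets kept Thbs1 was at -0.84 (edgeR adjusted p = 0.0845). Thbs1 was also among the 10 leading genes of 3 mature neutrophil-like clusters, of which 1 had 844 of its 940 cells from WT replicate 1. Mature neutrophil markers in HSPC-like cells summed to 13751 and 11892 CPM in YAP1 heterozygote and 11061 and 13921 CPM in WT, and their part in the Thbs1 value was not tested. In basophil or mast cell-like cells Maff had 22.1 and 24.5 CPM in YAP1 heterozygote and 58 and 39.8 CPM in WT, and was not called. The other lists had no call: of 23 tested megakaryocyte targets in megakaryocyte-like cells 6 were above and 17 below 0, with a median of -0.11 against -0.005 over all genes, and of 23 tested erythroid targets in erythroid progenitor-like cells 9 were above and 14 below, with a median of -0.05 against -0.002.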

How the data were processed

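Bone marrow cells of 2 YAP1 heterozygote and 2 WT libraries were read by 10x Genomics 3′ single-cell RNA sequencing. The deposited matrices hold raw UMI counts per gene and barcode, made by the authors with Cell Ranger 5.0.0 per the file headers, while the submitters' processing notes name Cell Ranger 3.0.0, Seurat 4.3.0 and the GRCm38 or mm10 build; any correction for free RNA is not given in the sources used here. Of 32544 genes 32460 matched GENCODE M21 identifiers, from which coordinates were taken.

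Barcodes had to hold 500 UMIs, 200 genes and no more than 10% mitochondrial UMIs. Doublets called by scrublet (in scanpy 1.11.5, with an expected rate of 0.8% per 1000 barcodes) were removed, 3.383 to 4.403% per library. Counts scaled to 10000 per cell and log-transformed were clustered on 2000 variable genes, 30 principal components and 15 neighbours with Leiden resolution 1.0 (leidenalg 0.10.2). The 10 factors were left out of the variable genes, among which 4 of them would have stood. Clusters were named from marker lists. The factors, markers and gene lists were chosen with earlier results of these data known. Classes with at least 20 cells in every library, 17 in number, were tested.

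Sums of UMI counts over the cells of a class in a library went into edgeR 4.0.16 (TMM, filterByExpr, quasi-likelihood test, Benjamini-Hochberg adjustment over all genes, R 4.3.3), genotype without a covariate and class pairs with the library as a term. The SE is the absolute log2 fold change over the square root of F, and 95% intervals use the fit's degrees of freedom. For cell shares, cells were thinned to 2000 UMIs with a fixed seed, and a count of 0 was taken to allow 3. The tests were tried on simulated data. Alternatives were DESeq2 1.42.0, RLE factors, no filter on low counts, the replicate number as a block, the factors kept among the clustering genes, Leiden resolution 2.0, doublets kept, the highest cell of a gene left out, each library left out, and other thinning depths.

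All 10 factors are named in every class. Of other genes, the text names the 3 with the highest Pearson r across classes and, of each list, up to 6 called genes by size of change, or otherwise the 2 of highest level. A gene of the partner list that this rule names is not reported here. Lmo2 and Spi1 in comparisons beyond those that rule names them in, and the motif letters, were chosen after values were seen. Python 3.11.15, numpy 2.4.6, pandas 2.3.3, scipy 1.17.1, scikit-learn 1.9.0, limma 3.58.1 and matplotlib 3.10.9 were also used.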

Additional observations from a re-analysis of the deposited data

How the results depend on the processing

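Between classes, all 60 counts of factors called under the alternatives were within 1.5 times the reported count. Reported counts were 9 or 10 of at most 10 factors, so this rule could hardly be failed. Over the fits without 1 library the counts were 7 to 9 for basophil or mast cell-like and 9 to 10 for megakaryocyte-like against HSPC-like cells. Zfpm1 between megakaryocyte-like and erythroid progenitor-like cells changed sign around 0 with DESeq2 (-0.0079), with no filter (-0.085), with Leiden resolution 2.0 (-0.0068) and without 1 library (-0.011 to 0.037). Tal1 between basophil or mast cell-like and HSPC-like cells did so with Leiden resolution 2.0 (-0.046) and without 1 library (-0.025 to 0.15). Nfe2 between megakaryocyte-like and HSPC-like cells was called at 0.21 with the factors kept among the clustering genes and at 0.30 without YAP1 heterozygote replicate 1. The genotype counts stayed at 0 with DESeq2, RLE factors, both clusterings, doublets kept and the highest cells left out; with no filter 1 factor was called in erythroid progenitor-like cells, Gata2 (adjusted p = 0.0082, with 103 of 16264 genes called). Without 1 library the range was 0 to 2 in erythroid progenitor-like cells (Gata2 and Runx1 without WT replicate 2), 0 to 1 in megakaryocyte-like cells (Gata2, likewise), 0 to 3 in all cells (Gata1, Klf1 and Gfi1b, likewise) and 0 in HSPC-like and basophil or mast cell-like cells; the lone WT library is then assumed to vary like the YAP1 heterozygote pair, and 259, 133 and 190 genes were called in the 3 fits. The cause was not tested. Genotype values that changed sign were those of Tal1 in HSPC-like cells (-0.01, Leiden resolution 2.0) and, in megakaryocyte-like cells, Fli1 (0.0029 with RLE factors, 0.0082 with doublets kept) and Gata1 (0.026 with the factors kept in clustering). Without 1 library the ranges were -0.16 to 0.12 for Gata2 in HSPC-like cells; in erythroid progenitor-like cells -0.86 to 0.11 for Fli1, -0.41 to 0.011 for Nfe2, -0.10 to 0.13 for Tal1, -0.0063 to 0.22 for Klf1 and -0.0023 to 0.057 for Zfpm1; and in megakaryocyte-like cells -0.18 to 0.14 for Gata1, -0.49 to 0.0095 for Gata2, -0.044 to 0.046 for Fli1, -0.27 to 0.068 for Runx1, -0.067 to 0.16 for Nfe2, -0.089 to 0.022 for Zfpm1 and -0.12 to 0.56 for Mecom. The replicate numbers only name libraries, though 1 and 2 go with sex-linked RNA in both groups, and same-numbered libraries deviated together with correlations of 0.18 in megakaryocyte-like, 0.33 in erythroid progenitor-like, 0.28 in HSPC-like, 0.12 in basophil or mast cell-like and 0.49 in all cells. With the replicate block 0 factors were called, while the genes called numbered 9, 4, 92 and 174 in those 4 classes, against 1, 0, 12 and 8 without it. Of 99 alternative co-detection values, 94 lay within 1 SD, over the 4 libraries, of the reported ratio. That band is wide where counts are small. Gata2 with Mecom in HSPC-like cells crossed 1, with 1.41 at 5000 UMIs, yet counted as within it. Fli1 with Klf1 in megakaryocyte-like cells had a ratio of 2.8 at 1000 UMIs and 0.619 to 1.19 without 1 library. In erythroid progenitor-like cells that pair had 0 (without YAP1 heterozygote replicate 2) to 1.03. Gata1 with Gata2 in erythroid progenitor-like cells had 2.05 at 1000 UMIs and 0.544 to 1.26 without 1 library. In HSPC-like cells Gata2 with Zfpm1 had 1.57 without thinning, and Tal1 with Zfpm1 1.23 at 1000 UMIs. The median number of factors per cell was 1 at 1000 UMIs and 4 at 5000 UMIs in megakaryocyte-like cells, 1 and 3 in erythroid progenitor-like and in basophil or mast cell-like cells, and 2 at 5000 UMIs in HSPC-like cells. Depth limits Mecom, Klf1 outside the erythroid class and every pair with fewer than 5 cells from the product of shares.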
